A study of Mus musculus with 12 samples.

Results

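The inner nuclear membrane proteins and B-type lamins examined here were 10 genes of the 55416 listed in the count tables, chosen by gene symbol. The 8 membrane genes were Lbr, Emd, Lemd2, Lemd3, Sun1, Sun2, Syne2 and Tmpo, and the 2 lamin genes were Lmnb1 and Lmnb2. All 10 passed the filter on low counts, which left 17702 genes, and the smallest raw count of any of them in any library was 152, for Syne2. RNA came from mouse embryonic stem cells (E14Tg2a.4) in which the ribosomal protein Rpl31 carries a FLAG-TEV-AviTag, and all libraries share this tag. ALIBi, which biotinylates tagged ribosomes by proximity, was directed to the endoplasmic reticulum (ER), and RNA bound to the affinity-purified ribosomes is called ER-bound here. The 4 groups, each of 3 biological replicates, were ER-bound RNA from cells given Lsg1 siRNA, ER-bound RNA from cells given a scramble siRNA as control, and the whole-cell RNA of the same Lsg1 siRNA cells and of the same scramble cells. The ER-bound and whole-cell RNA of a culture came from 1 lysate, and every replicate came from 1 cell line.

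The nuclear envelope is continuous with the ER. Proteins of the inner nuclear membrane are inserted into the ER membrane and reach the inner membrane through the nuclear pores, where many bind lamins or chromatin. Proteins whose only membrane segment lies at the C-terminus are released from the ribosome before that segment can be recognised and are inserted afterwards. B-type lamins are made as soluble proteins, imported into the nucleus and farnesylated at a C-terminal CaaX box, which is then trimmed and methylated by enzymes of the ER membrane. Lsg1 is a GTPase of cytoplasmic 60S ribosomal subunit maturation that has also been located at the ER.

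The coding sequences differ in where they encode a membrane segment. Segments were found as runs of 19-residue windows with a mean Kyte-Doolittle hydropathy of at least 1.6 in proteins translated from the GENCODE transcripts on GRCm38. For each gene the longest product is described. The following stretches show an early segment (Lbr), tail segments (Emd, Tmpo-202, Syne2) and a lamin tail with none (Lmnb2); capitals mark the codons of the segment (for Syne2 the last 28 codons of a segment at residues 6817 to 6848), and for Lmnb2 the last 4 codons, a cysteine and 3 more residues before the stop codon.
Lbr, codons 218 to 246, chr1:181828844-181831563, minus strand, exons 5 and 6 of 14: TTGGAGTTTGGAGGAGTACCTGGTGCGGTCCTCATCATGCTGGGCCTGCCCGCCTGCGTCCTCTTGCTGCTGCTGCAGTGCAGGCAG
Emd, codon 223 to the stop, chrX:74257224-74257337, plus strand, exon 6 of 6: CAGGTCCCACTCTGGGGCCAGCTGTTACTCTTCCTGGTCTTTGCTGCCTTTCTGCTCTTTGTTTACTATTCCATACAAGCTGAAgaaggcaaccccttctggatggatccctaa
Tmpo-202, codon 408 to the stop, chr10:91149476-91149613, minus strand, exon 9 of 9: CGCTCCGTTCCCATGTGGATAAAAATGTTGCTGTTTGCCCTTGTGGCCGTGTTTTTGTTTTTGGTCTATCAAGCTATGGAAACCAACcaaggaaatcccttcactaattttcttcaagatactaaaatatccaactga
Syne2, codon 6821 to the stop, chr12:76109880-76110044, plus strand, exon 116 of 116: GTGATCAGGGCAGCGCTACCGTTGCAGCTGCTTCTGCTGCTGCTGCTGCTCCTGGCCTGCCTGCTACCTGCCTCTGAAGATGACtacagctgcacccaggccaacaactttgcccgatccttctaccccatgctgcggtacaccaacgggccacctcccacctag
Lmnb2, codon 601 to the stop, chr10:80902859-80903217, minus strand, exons 11 and 12 of 12: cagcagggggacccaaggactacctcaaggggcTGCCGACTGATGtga

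The Lbr sequence is followed by 380 more residues, so a ribosome still has most of the chain to make once this segment is complete. Emd leaves only 9 residues after its segment, Tmpo-202 leaves 16 and Syne2 leaves 26. Lbr (626 residues), a chromatin and lamin B receptor whose C-terminal part is a sterol reductase, held 7 segments. The LEM-domain proteins Lemd2 (511 residues) and Lemd3 (940 residues) held 2 each, the first at residues 217 to 242 and 476 to 504. The SUN proteins, which reach into the lumen to hold KASH proteins, held 1 each, at residues 403 to 437 of 913 in Sun1 and 219 to 245 of 731 in Sun2. Emd (259 residues), emerin, held 1 at residues 223 to 250. Syne2 encodes nesprin-2, a giant KASH protein of 6874 residues known mainly from the outer nuclear membrane. Besides its tail segment it met the threshold at residues 123 to 141, within its N-terminal end. Lmnb1 (588 residues) and Lmnb2 (615 residues) held none.

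Tmpo does not carry a single kind of protein. Its longest product (693 residues) held no segment and corresponds to a soluble form of lamina-associated polypeptide 2. Tmpo-202, Tmpo-203, Tmpo-204 and Tmpo-205 (452, 412, 380 and 343 residues) each held 1 segment ending 16 residues before the C-terminus. The deposited counts are per gene, so soluble and membrane forms cannot be told apart in them. By this measure 7 of the 8 membrane genes encoded a segment in their longest product. On GRCm38 the genes not placed above lie at chr17:27189600-27204469 (Lemd2, minus strand), chr10:120923413-120979332 (Lemd3, minus strand), chr5:139200637-139249840 (Sun1, plus strand) and chr15:79724070-79742536 (Sun2, minus strand), and Lmnb1 lies on chromosome 18.

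**Figure D1:**
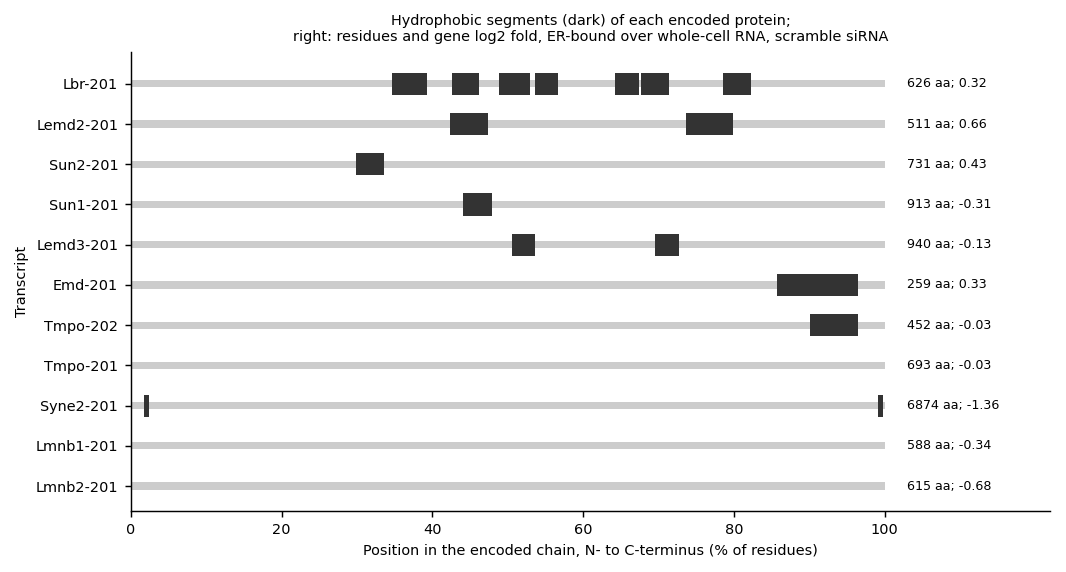
Hydrophobic segments along the encoded proteins. Each grey bar is 1 protein from N- to C-terminus (x axis, % of residues), dark blocks are segments, and the numbers at right are the length in residues and the gene's log2 fold of ER-bound over whole-cell RNA with scramble siRNA. Segments begin well before the C-terminus for Lbr, Lemd2, Sun2, Sun1 and Lemd3, lie at the C-terminus for Emd, Tmpo-202 and Syne2 (which also has one near its start), and are missing from the longest Tmpo product, Lmnb1 and Lmnb2.

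Each library held 38092178 to 56522114 reads assigned to genes, and the first principal component (68.5% of the variance) separated the fractions. Lsg1 checked the siRNA labels: it stood at 35.4, 42.5 and 52.5 CPM (read counts relative to library size, scaled by edgeR's TMM method) in ER-bound RNA with Lsg1 siRNA, against 142.5, 149 and 151 CPM with scramble siRNA. Its whole-cell level was 83.5, 96.7 and 114 CPM with Lsg1 siRNA, against 136, 144 and 149 CPM with scramble siRNA. Pluripotency genes were abundant in every group (Pou5f1 averaged 1492 to 1633 CPM), and 4 of 6 fibroblast and 5 of 6 endoderm marker genes also passed the filter. Among these, group means ran from 20.9 to 46.0 CPM for Thy1, from 4.30 to 6.26 CPM for Col1a1 and from 2.31 to 3.06 CPM for Gata4, while Postn, Dcn and Foxa2 did not pass. Thy1 was higher in ER-bound RNA with both siRNAs, and the part of other cell types in the results was not tested. Of 10646 genes with a mean of at least 5 CPM, 78 lay at least 1.5-fold below both other libraries of the group in ER-bound scramble replicate 1, against 0 to 2 in each other library. Sun1 was among the genes low in that library, so results on ER-bound scramble RNA are also given without it. In these bulk libraries, fewer cells with a transcript and less of it per cell cannot be told apart. ER-bound RNA was compared with whole-cell RNA and not with the RNA of all ribosomes, so more translation overall and more translation at the ER cannot be told apart either.

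Per kilobase of the longest coding transcript, the whole-cell level with scramble siRNA was highest for Lmnb1, at 231 ± 3.69 CPM per kb (SD, n = 3). Tmpo followed with 86.9 ± 0.476 CPM per kb, Lbr with 72.6 ± 1.33, Emd with 48.9 ± 1.30 and Sun1 with 32.5 ± 0.336. Lmnb2, at 28.5 ± 0.358 CPM per kb, stood well below Lmnb1. Lemd3 (8.10 ± 0.146 CPM per kb), Lemd2 (7.76 ± 0.147), Sun2 (4.97 ± 0.293) and Syne2 (0.451 ± 0.0347) were the lowest. No 2 neighbours in this order had overlapping replicates, though Lemd3 and Lemd2 differed by less than any other pair of neighbours.

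The first question was which of these mRNAs the ER-labelled ribosomes carried in excess of their whole-cell level. Lbr, Emd, Lemd2 and Sun2 were higher on ER-labelled ribosomes with both siRNAs, and Lmnb1, Lmnb2 and Syne2 were lower with both. Tmpo passed with neither siRNA when all libraries were used. Lemd3 and Sun1 passed as lower with scramble siRNA and did not pass with Lsg1 siRNA, and the test of that difference, the interaction, passed for neither. By the quasi-likelihood test of edgeR, adjusted by the Benjamini-Hochberg method, 4 of the 10 genes were higher and 3 lower with Lsg1 siRNA, where 60.3% of all genes tested were called (30.6% higher, 29.8% lower). With scramble siRNA 4 were higher and 5 lower, where 58.9% of all genes were called (29.8% higher, 29.1% lower). Most of the genes tested were thus called as well, and nothing is read from these counts alone. Among the 8 membrane genes the median log2 fold was 0.18 with Lsg1 siRNA and 0.14 with scramble siRNA, and for the 2 lamins it was -0.58 with Lsg1 siRNA and -0.51 with scramble siRNA. Over all genes it was 0.02 with Lsg1 siRNA and 0.03 with scramble siRNA. The 7 pluripotency marker genes, whose longest products held no segment, had medians of 0.07 with Lsg1 siRNA and 0.19 with scramble siRNA. Of these, 3 were higher and 1 lower with Lsg1 siRNA, and 6 and 1 with scramble siRNA. A modest rise was thus not limited to genes for membrane proteins.

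Lbr stood at 342, 318 and 314 CPM in ER-bound RNA, against 250.2, 241 and 241 CPM in whole-cell RNA, in the cells with Lsg1 siRNA. With scramble siRNA it stood at 321, 318 and 318 CPM in ER-bound RNA, against 255, 250.1 and 259 CPM in whole-cell RNA. All 6 ER-bound libraries lay above all 6 whole-cell libraries, and the log2 folds were 0.41 (SE 0.03, edgeR adjusted p = 3.0e-09) with Lsg1 siRNA and 0.32 (SE 0.03, edgeR adjusted p = 8.2e-08) with scramble siRNA. Lemd2, a LEM-domain protein of the inner membrane, stood at 35.0, 32.8 and 33.7 CPM in ER-bound RNA, against 18.97, 21.4 and 20.7 CPM in whole-cell RNA, with Lsg1 siRNA. Lemd2 in the scramble cultures stood at 33.9, 29.8 and 32.8 CPM in ER-bound RNA, against 20.7, 20.5 and 20.0 CPM in whole-cell RNA. The fractions did not overlap, and Lemd2 had the largest rise of the 10 genes, with log2 folds of 0.73 (SE 0.05, edgeR adjusted p = 1.0e-09) with Lsg1 siRNA and 0.66 (SE 0.05, edgeR adjusted p = 4.8e-09) with scramble siRNA.

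Sun2, the SUN protein with the earlier segment, stood at 30.7, 30.5 and 29.4 CPM in ER-bound RNA, against 18.7, 19.1 and 19.9 CPM in whole-cell RNA, with Lsg1 siRNA. In the scramble cultures Sun2 stood at 22.1, 27.1 and 26.99 CPM in ER-bound RNA, against 20.0, 18.9 and 17.8 CPM in whole-cell RNA. The fractions did not overlap with either siRNA, but ER-bound scramble replicate 1 lay closest to the whole-cell values. The log2 folds were 0.65 (SE 0.07, edgeR adjusted p = 9.7e-08) with Lsg1 siRNA and 0.43 (SE 0.07, edgeR adjusted p = 2.1e-05) with scramble siRNA. Sun1 was not called higher with either siRNA. It stood at 129, 133 and 126 CPM in ER-bound RNA, against 137, 128 and 131 CPM in whole-cell RNA, with Lsg1 siRNA, and these ranges overlapped. In the scramble cultures Sun1 stood at 74.7, 122 and 129 CPM in ER-bound RNA, against 133, 135 and 135 CPM in whole-cell RNA. The low value came from ER-bound scramble replicate 1. The log2 folds of Sun1 were -0.03 (SE 0.12, edgeR adjusted p = 0.85) with Lsg1 siRNA and -0.31 (SE 0.12, edgeR adjusted p = 0.037) with scramble siRNA; without that library the fold with scramble siRNA became -0.11 (edgeR adjusted p = 0.023). In 5 alternatives the call with scramble siRNA was lost, among them DESeq2 (adjusted p = 0.074).

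Lemd3, also called MAN1, an inhibitor of Smad signalling, stood at 39.6, 38.8 and 36.5 CPM in ER-bound RNA, against 38.6, 37.5 and 36.0 CPM in whole-cell RNA, with Lsg1 siRNA. In the scramble cultures Lemd3 stood at 33.3, 36.5 and 35.8 CPM in ER-bound RNA, against 37.6, 38.8 and 38.8 CPM in whole-cell RNA. The fractions overlapped with Lsg1 siRNA and did not with scramble siRNA, and the log2 folds were 0.04 (SE 0.04, edgeR adjusted p = 0.47) with Lsg1 siRNA and -0.13 (SE 0.04, edgeR adjusted p = 0.018) with scramble siRNA. The scramble value no longer passed without ER-bound scramble replicate 1 (-0.09, edgeR adjusted p = 0.077) or with library totals in place of TMM (-0.05, edgeR adjusted p = 0.38).

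Of the genes with a tail segment, Emd was higher on ER-labelled ribosomes, Tmpo passed in neither direction and Syne2 was lower. Emd stood at 102, 105 and 105 CPM in ER-bound RNA, against 81.0, 81.6 and 86.4 CPM in whole-cell RNA, with Lsg1 siRNA. With scramble siRNA it stood at 96.8, 98.9 and 98.6 CPM in ER-bound RNA, against 80.5, 76.8 and 76.9 CPM in whole-cell RNA. The fractions did not overlap, and the log2 folds were 0.32 (SE 0.03, edgeR adjusted p = 1.5e-07) with Lsg1 siRNA and 0.33 (SE 0.03, edgeR adjusted p = 1.2e-07) with scramble siRNA. With an offset for trends in GC content and transcript length, fitted over all genes, they came to 0.07 (edgeR adjusted p = 0.079) with Lsg1 siRNA and 0.08 (edgeR adjusted p = 0.061) with scramble siRNA and no longer passed; the transcript of Emd, 1595 bases, is the shortest of the 10. Tmpo stood at 314, 314 and 310.1 CPM in ER-bound RNA, against 329, 314 and 321 CPM in whole-cell RNA, with Lsg1 siRNA. Tmpo in the scramble cultures stood at 318, 322 and 319 CPM in ER-bound RNA, against 329, 329 and 326 CPM in whole-cell RNA. Its log2 folds were -0.04 (SE 0.03, edgeR adjusted p = 0.19) with Lsg1 siRNA and -0.03 (SE 0.03, edgeR adjusted p = 0.26) with scramble siRNA, and with library totals they came to 0.05 with Lsg1 siRNA and 0.04 with scramble siRNA. With Lsg1 siRNA Tmpo passed as lower without whole-cell scramble replicate 1 (-0.069, edgeR adjusted p = 0.043) or replicate 3 (-0.068, edgeR adjusted p = 0.036), libraries that enter only the estimate of spread and the scaling.

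Syne2 was the lowest of the 10 on ER-labelled ribosomes. It stood at 3.78, 3.65 and 4.63 CPM in ER-bound RNA, against 9.77, 9.47 and 8.87 CPM in whole-cell RNA, with Lsg1 siRNA. With scramble siRNA it stood at 3.47, 3.77 and 4.07 CPM in ER-bound RNA, against 10.5, 9.84 and 9.01 CPM in whole-cell RNA. All ER-bound values lay below all whole-cell values, and the log2 folds were -1.21 (SE 0.09, edgeR adjusted p = 1.7e-09) with Lsg1 siRNA and -1.36 (SE 0.09, edgeR adjusted p = 3.8e-10) with scramble siRNA. With the GC and length offset they came to -0.52 with Lsg1 siRNA and -0.62 with scramble siRNA and still passed. At 21704 bases the transcript of Syne2 is the longest of the 10.

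The B-type lamins, the filament proteins beneath the inner membrane, were lower on ER-labelled ribosomes in every culture. Lmnb1 stood at 528, 530.1 and 545 CPM in ER-bound RNA, against 648, 655 and 697 CPM in whole-cell RNA, with Lsg1 siRNA. In the scramble cultures Lmnb1 stood at 514, 513 and 524 CPM in ER-bound RNA, against 645, 656 and 666 CPM in whole-cell RNA. Its log2 folds were -0.32 (SE 0.03, edgeR adjusted p = 2.1e-08) with Lsg1 siRNA and -0.34 (SE 0.03, edgeR adjusted p = 8.2e-09) with scramble siRNA. Lmnb2 stood at 53.2, 53.0 and 55.4 CPM in ER-bound RNA, against 92.3, 97.5 and 99.7 CPM in whole-cell RNA, with Lsg1 siRNA. In the scramble cultures Lmnb2 stood at 61.4, 61.4 and 65.3 CPM in ER-bound RNA, against 99.6, 101.96 and 100.1 CPM in whole-cell RNA. No fraction of a lamin overlapped with the other. The log2 folds of Lmnb2 were -0.84 (SE 0.04, edgeR adjusted p = 1.8e-12) with Lsg1 siRNA and -0.68 (SE 0.04, edgeR adjusted p = 2.7e-11) with scramble siRNA. With the GC and length offset the lamins lay further down, Lmnb1 at -0.50 with Lsg1 siRNA and -0.53 with scramble siRNA and Lmnb2 at -1.01 with Lsg1 siRNA and -0.83 with scramble siRNA.

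**Figure D2:**
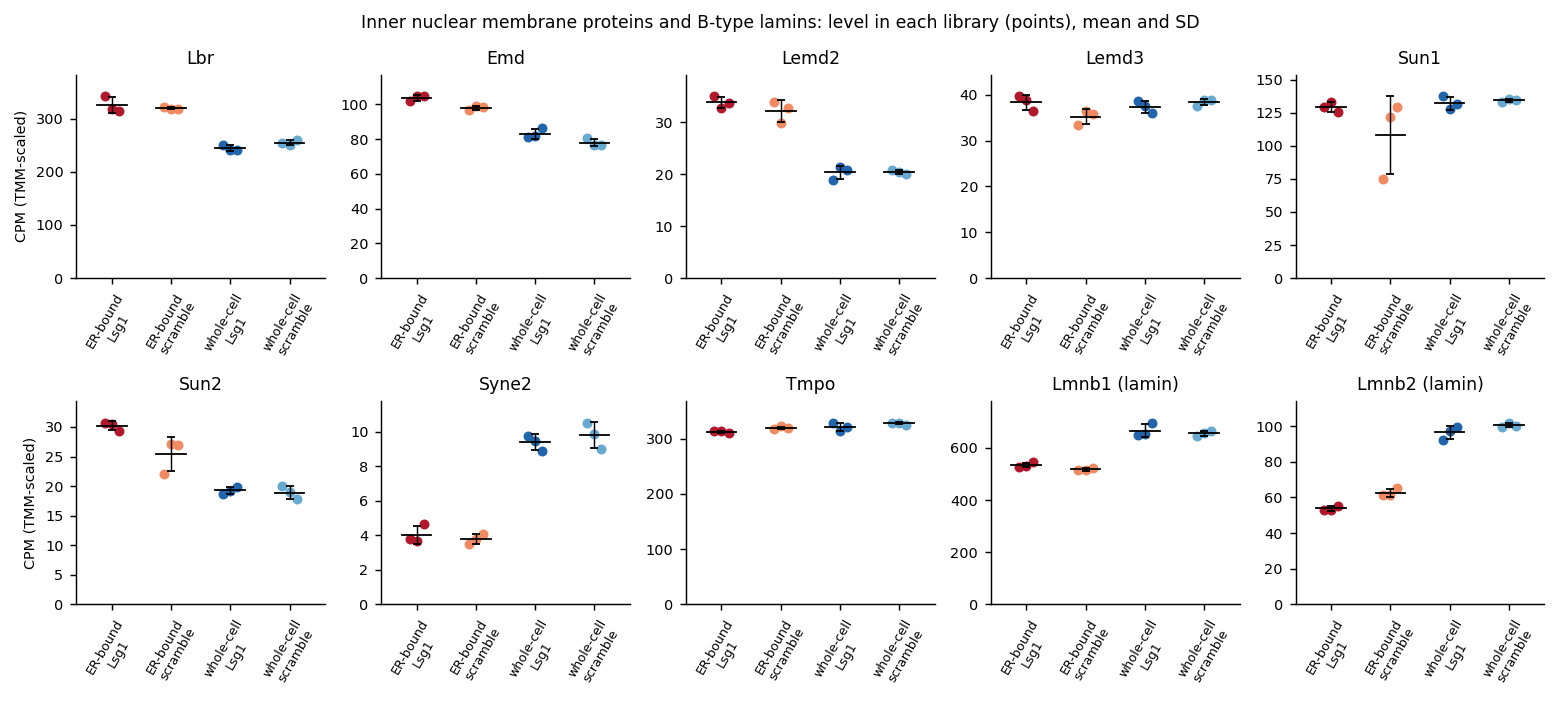
Level of each of the 10 genes in every library. The y axis is CPM scaled by TMM, starting at 0; each point is 1 library, and lines and bars are the mean and SD of 3 replicates. Lbr, Emd, Lemd2 and Sun2 lie higher in the ER-bound groups, Syne2, Lmnb1 and Lmnb2 lie lower, and the single low Sun1 point at 74.7 CPM is ER-bound scramble replicate 1.

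**Figure D3:**
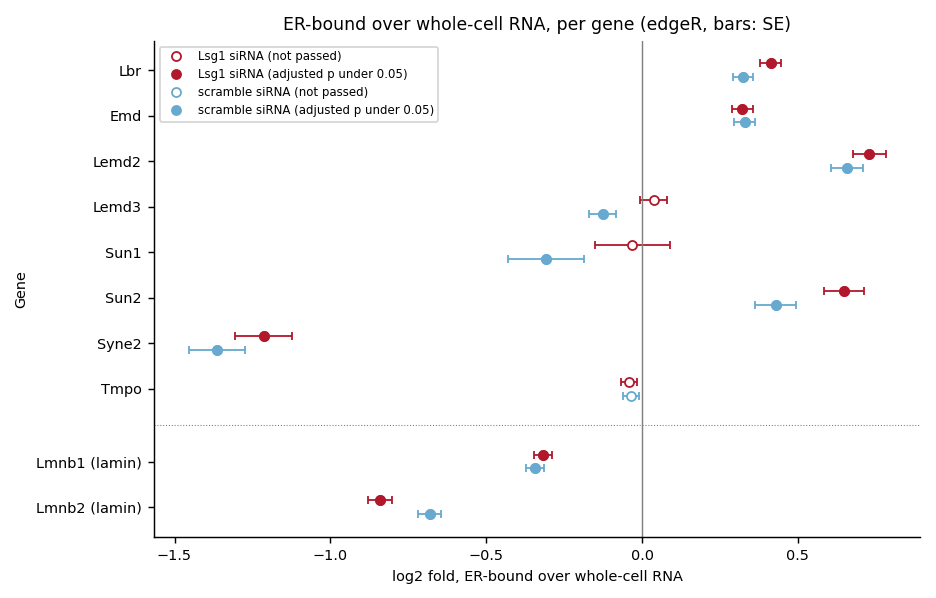
Log2 fold of ER-bound over whole-cell RNA for each gene, with Lsg1 siRNA above and scramble siRNA below in each row. Bars are SE derived from the edgeR test, and filled points passed the adjusted p of 0.05. Folds run from -1.36 (Syne2, scramble siRNA) to 0.73 (Lemd2, Lsg1 siRNA), and both lamins lie left of 0.

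Membrane genes were then set against lamins within each culture, as the difference of their log2 ratios of ER-bound to whole-cell RNA, in 16 pairs of a membrane gene and a lamin. Over the 6 cultures, 14 pairs had a mean above 0. Of these, 12 passed a two-sided exact sign-flip permutation test (p = 0.03125, the smallest that 6 cultures allow, and 0.0357 after Benjamini-Hochberg adjustment over the 16 pairs). All pairs share the same 2 lamins, whose own folds lay below the median of all genes (0.02 with Lsg1 siRNA and 0.03 with scramble siRNA). Genes of any kind near that median would exceed them too, so these counts show no trait particular to membrane genes. Lbr exceeded Lmnb1 by 0.70 ± 0.041 (SD, n = 6) and Lmnb2 by 1.13 ± 0.147 on the log2 scale, in all 6 cultures. Lemd2 exceeded Lmnb2 by 1.45 ± 0.148 and Sun2 by 1.30 ± 0.260. Lemd3 and Tmpo, whose own folds lay between -0.13 and 0.04, exceeded Lmnb1 by 0.29 ± 0.085 and 0.29 ± 0.036. The 2 pairs of Sun1 did not pass: the mean difference was 0.14 with Lmnb1, in 5 of 6 cultures and with an exact permutation p of 0.375 (adjusted 0.375), and 0.57 with Lmnb2, in 5 of 6 cultures and with an exact permutation p of 0.0625 (adjusted 0.0667). The culture that ran the other way was scramble replicate 1. The permutation test takes the 6 cultures as independent. Deviations of same-numbered ER-bound libraries of the 2 siRNAs, however, correlated by 0.126 to 0.376 over genes of at least 5 CPM. Such sharing would make the exact permutation p-values given here too small, and it was not modelled in this test.

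Syne2 was the exception among the membrane genes. Its difference from Lmnb1 averaged -0.96 ± 0.240 (SD, n = 6) and that from Lmnb2 -0.53 ± 0.263, both below 0 in all 6 cultures, with the same exact permutation p of 0.03125 (adjusted 0.0357). With the trend in GC content and length removed, an alternative chosen after seeing the data, the difference from Lmnb1 was -0.05 (exact permutation p = 0.4375). That from Lmnb2 turned to 0.35, above 0 in all 6 cultures (0.16 to 0.70, exact permutation p = 0.03125, not adjusted). The order of Syne2 and Lmnb2 thus depended on whether this trend was removed. Sun1 exceeded Lmnb2 by 0.71 with the trend removed, with the same exact permutation p, and Lmnb1 by 0.31 (exact permutation p = 0.0625). The other 14 pairs stayed above 0 with this trend removed, so that 15 of 16 did.

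Where a segment lies in the chain was also related to the fold over all tested genes with an annotated coding sequence, by the longest product of each. Genes with any segment ending more than 60 residues before the C-terminus (Lbr, Lemd2, Lemd3, Sun1, Sun2 and, for its N-terminal stretch, Syne2 among them) numbered 4546. Of these, 55.9% were higher with Lsg1 siRNA and 52.5% with scramble siRNA on ER-labelled ribosomes. The 597 genes with only a tail segment, as in Emd, were higher in 49.6% of cases with Lsg1 siRNA and 48.7% with scramble siRNA, and the 9440 genes with none, as in the lamins and the longest Tmpo product, in 23.7% with Lsg1 siRNA and 23.9% with scramble siRNA. Lower calls were made for 19.2% of the early class with Lsg1 siRNA and 19.5% with scramble siRNA, for 15.9% and 16.4% of the tail class, and for 39.5% and 38.3% of the genes with none. The median log2 folds were 0.39 with Lsg1 siRNA and 0.33 with scramble siRNA for the early class, 0.22 with Lsg1 siRNA and 0.23 with scramble siRNA for the tail class, and -0.06 with Lsg1 siRNA and -0.05 with scramble siRNA for genes with none. Sun1, at -0.03 with Lsg1 siRNA and -0.31 with scramble siRNA, lay below the median of the early class, as did Lemd3 (0.04 and -0.13) and Syne2 (-1.21 and -1.36). Lemd2 and Sun2 lay above it with both siRNAs, and Lbr lay above it with Lsg1 siRNA (0.41) and just below it with scramble siRNA (0.32). Emd (0.32 and 0.33) lay above the median of the tail class. Lmnb1 (-0.32 and -0.34) and Lmnb2 (-0.84 and -0.68) lay below that of genes with no segment, and Tmpo (-0.04 and -0.03) just above it. The class shares and medians were not recomputed with the GC and length offset, under which Emd came to 0.07 with Lsg1 siRNA and 0.08 with scramble siRNA. The segment search also takes signal peptides as segments and does not test whether a stretch crosses a membrane.

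Of 21 other membrane proteins of the nuclear envelope 19 were tested, since Sun3 and Sun5 did not pass the filter; 12 were higher and 3 lower on ER-labelled ribosomes with Lsg1 siRNA, and 11 and 4 with scramble siRNA. Over all genes tested, 30.6% were higher and 29.8% lower with Lsg1 siRNA, and 29.8% higher and 29.1% lower with scramble siRNA. These shares stand beside this and the following lists. Genes with an early segment were themselves higher in 55.9% of cases with Lsg1 siRNA and 52.5% with scramble siRNA. Genes with no segment were lower in 39.5% and 38.3%. The lists were not tested against these classes. The median log2 folds of the 19 genes were 0.27 with Lsg1 siRNA and 0.22 with scramble siRNA. Tmem43 (LUMA), an inner membrane protein, stood at 47.6 ± 1.42 CPM in ER-bound RNA and 18.5 ± 0.308 CPM in whole-cell RNA with Lsg1 siRNA (SD, n = 3 each), a log2 fold of 1.36 (SE 0.04). With scramble siRNA it stood at 38.5 ± 0.985 CPM in ER-bound RNA and 16.2 ± 0.870 CPM in whole-cell RNA, a log2 fold of 1.25 (SE 0.04). Nurim (Nrm) had log2 folds of 0.93 with Lsg1 siRNA and 0.82 with scramble siRNA and the multi-pass protein Tmem120a 0.93 and 0.87. Among those that did not pass, Ankle2, which helps Banf1 return to chromatin after mitosis, had 0.05 with Lsg1 siRNA and -0.08 with scramble siRNA. It passed as higher with Lsg1 siRNA under the GC and length offset (0.20, edgeR adjusted p = 0.012). ER-bound scramble replicate 1 held 57.2 CPM of Ankle2, against 77.5 and 78.0 CPM in the other 2 libraries of its group, and without that library the scramble fold was 0.05 (edgeR adjusted p = 0.30). Syne4, a KASH protein much shorter than Syne2, had 0.10 with Lsg1 siRNA and -0.01 with scramble siRNA, and under the GC and length offset it passed as lower with both, at -0.20 with Lsg1 siRNA (edgeR adjusted p = 0.0033) and -0.31 with scramble siRNA (edgeR adjusted p = 3.8e-05). The pore membrane protein Pom121 had a log2 fold of -0.13 that did not pass with Lsg1 siRNA and one of -0.39 that passed with scramble siRNA; ER-bound scramble replicate 1 held 72.0 CPM of it, against 98.6 and 106 CPM in the other 2 libraries of its group. Without that library Pom121 passed as lower with both, at -0.14 with Lsg1 siRNA (edgeR adjusted p = 0.0014) and -0.24 with scramble siRNA (edgeR adjusted p = 1.7e-05). The other giant KASH gene, Syne1, named after its values were seen because it resembles Syne2, had log2 folds of -0.75 with Lsg1 siRNA and -0.80 with scramble siRNA (SE 0.15 each) at group means of 1.22 to 2.17 CPM.

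All 4 torsins, ATPases of the ER and nuclear envelope lumen, were higher with both siRNAs, with medians of 0.75 with Lsg1 siRNA and 0.64 with scramble siRNA. Tor2a had log2 folds of 1.15 with Lsg1 siRNA and 1.08 with scramble siRNA, Tor1a 1.04 and 0.96 and Tor3a 0.44 and 0.31. Tor1a and Tor1b are neighbouring genes on opposite strands that do not overlap in GENCODE M21. Whether the counting used strand, and which annotation it used, is not known here. Both relatives of the Lbr reductase domain, the sterol reductases Dhcr7 (0.61 with Lsg1 siRNA and 0.57 with scramble siRNA) and Tm7sf2 (0.54 and 0.63), were higher as well; with the GC and length offset Tm7sf2 came to 0.25 with Lsg1 siRNA and 0.35 with scramble siRNA.

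Of the 5 genes for enzymes that process the CaaX box of lamins, 3 were higher and 1 lower with both siRNAs, with medians of 0.31 with Lsg1 siRNA and 0.26 with scramble siRNA. The membrane-bound protease Rce1 had log2 folds of 0.95 with Lsg1 siRNA and 0.84 with scramble siRNA, the metalloprotease Zmpste24 0.60 and 0.45, and the methyltransferase Icmt 0.31 and 0.26. The cytosolic farnesyltransferase subunit Fntb had 0.00 with Lsg1 siRNA and 0.05 with scramble siRNA and passed with neither, and with the GC and length offset it came to -0.22 with Lsg1 siRNA and -0.16 with scramble siRNA. Its partner Fnta, named after its values were seen to complete the list of 5, was lower, at -0.14 with Lsg1 siRNA and -0.10 with scramble siRNA. Of 7 soluble partners of the lamina, 1 was higher and 6 lower with Lsg1 siRNA, and 1 and 5 with scramble siRNA, with medians of -0.14 with Lsg1 siRNA and -0.13 with scramble siRNA. Cbx5, the heterochromatin protein HP1 alpha and a partner of Lbr, stood at 243 ± 2.41 CPM in ER-bound RNA and 415 ± 14.6 CPM in whole-cell RNA with Lsg1 siRNA (SD, n = 3 each). Its log2 fold was -0.77 (SE 0.03) with either siRNA, and with the GC and length offset it was -0.32 with Lsg1 siRNA and -0.30 with scramble siRNA and still passed. Hdac3, a histone deacetylase that binds emerin, had -0.31 with Lsg1 siRNA and -0.29 with scramble siRNA, and Cbx3, another HP1 protein, -0.17 and -0.18. Banf1, the DNA-binding partner of LEM domains, was the higher one, at 0.22 with Lsg1 siRNA and 0.19 with scramble siRNA, and with the GC and length offset it turned to -0.071 with Lsg1 siRNA and -0.10 with scramble siRNA. Lmna, the A-type lamin gene, had -0.09 (edgeR adjusted p = 0.033) with Lsg1 siRNA and -0.04 (edgeR adjusted p = 0.29) with scramble siRNA. The Lsg1 siRNA call on Lmna was lost in 4 of the 23 alternatives, among them library totals (-0.0019, edgeR adjusted p = 0.97), and with the GC and length offset Lmna passed as lower with both, at -0.29 with Lsg1 siRNA and -0.24 with scramble siRNA.

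**Figure D4:**
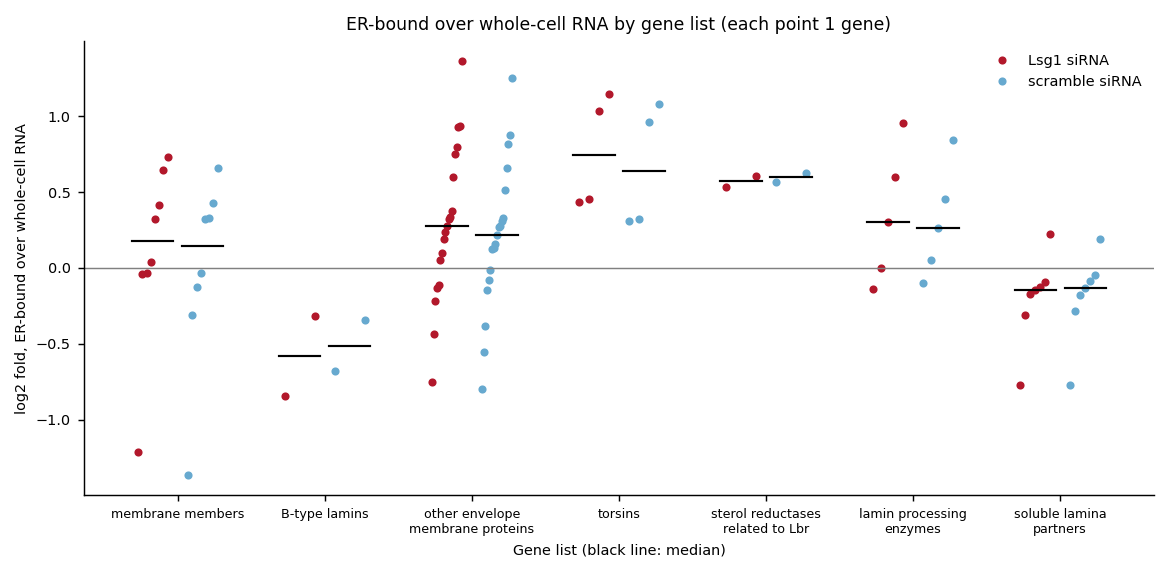
Log2 fold of ER-bound over whole-cell RNA (y axis) by gene list (x axis), with Lsg1 siRNA left and scramble siRNA right in each column; each point is 1 gene and black lines are medians. All torsins and sterol reductases lie above 0 and both B-type lamins below 0, and the lowest point of the membrane genes examined here is Syne2 at -1.21 with Lsg1 siRNA and -1.36 with scramble siRNA.

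The second question was what the Lsg1 siRNA changed. In ER-bound RNA, 1 of the 10 genes was higher (Sun2) and 1 lower (Lmnb2), where 4.01% of all genes tested were called (2.63% higher, 1.38% lower). That background was 710 genes, 465 higher and 245 lower; with the GC and length offset the split was 396 and 379, and with the replicate number as a block 1178 genes were called. Lmnb2 lay lower in every ER-bound library with Lsg1 siRNA than in every one with scramble siRNA, in the values given above, with a difference of -0.22 on the log2 scale (SE 0.04, edgeR adjusted p = 0.0031). Its adjusted p stayed at or under 0.023 in 23 alternatives. The whole-cell value of Lmnb2 was -0.06 (SE 0.04, edgeR adjusted p = 1.00), and the replicates overlapped there.

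Sun2 was higher in ER-bound RNA with Lsg1 siRNA in all 3 libraries, by 0.25 on the log2 scale (SE 0.06, edgeR adjusted p = 0.032). Without ER-bound scramble replicate 1 the fold was 0.15 (edgeR adjusted p = 0.070), and the call was lost in 7 of the 23 alternatives. In whole-cell RNA Sun2 had 0.03 (SE 0.07, edgeR adjusted p = 1.00). Sun1 differed by 0.25 (SE 0.12, edgeR adjusted p = 0.29) in ER-bound RNA, and by 0.04 without that library. The remaining 7 of the 10 genes lay between -0.03 (Tmpo) and 0.12 (Lemd3) in ER-bound RNA and did not pass.

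In whole-cell RNA none of the 10 genes passed, where 0% of all genes were called. That count of 0 comes from edgeR, where 731 genes had an unadjusted p under 0.05. DESeq2 called 5 genes. Lsg1 itself was lower in every whole-cell library with Lsg1 siRNA, at -0.55, and did not pass (edgeR adjusted p = 0.25). A count of 0 therefore does not show that nothing changed in whole-cell RNA. The log2 folds of the 10 genes lay between -0.06 and 0.09, the highest for Emd. Whether the effect of the siRNA differed between the fractions was tested as an interaction, which passed for 4 genes (0.0226% of all, 0.0113% higher and 0.0113% lower) and for none of the 10; 1219 genes had an unadjusted p under 0.05, and DESeq2 called 18. The interaction of Lmnb2 was -0.16 (SE 0.05, edgeR adjusted p = 0.53), that of Sun2 0.22 (SE 0.09, edgeR adjusted p = 0.69) and that of Sun1 0.28 (SE 0.17, edgeR adjusted p = 0.83). So a lower Lmnb2 or higher Sun2 in ER-bound RNA is not shown to differ from its change in whole-cell RNA. The comparisons between fractions and those between siRNAs share libraries.

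Of the 37 genes tested over the 5 other envelope lists, 6 were higher and 1 lower between siRNAs in ER-bound RNA, where 2.63% of all genes were higher and 1.38% lower. Tmem43 was higher by 0.31 (SE 0.04, edgeR adjusted p = 0.00027), and held this call in all 23 alternatives; in whole-cell RNA it had 0.19 (SE 0.05, edgeR adjusted p = 0.74). Ndc1, a pore membrane protein, was higher at 0.19 (SE 0.04, edgeR adjusted p = 0.013), Tor1b at 0.22 (SE 0.05, edgeR adjusted p = 0.010), Tor3a at 0.15, Zmpste24 at 0.15 and Tor2a at 0.12. Cbx1, an HP1 protein, was lower at -0.10. The calls of Zmpste24, Cbx1, Tor3a and Tor2a were lost in 12 to 19 of the 23 alternatives, that of Ndc1 in 4 (edgeR adjusted p up to 0.085) and that of Tor1b in 2 (up to 0.079). The interaction passed for none of the 37 genes, and for Tmem43 it was 0.11 (edgeR adjusted p = 0.80). These changes in ER-bound RNA are thus not shown to differ from those in whole-cell RNA.

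**Figure D5:**
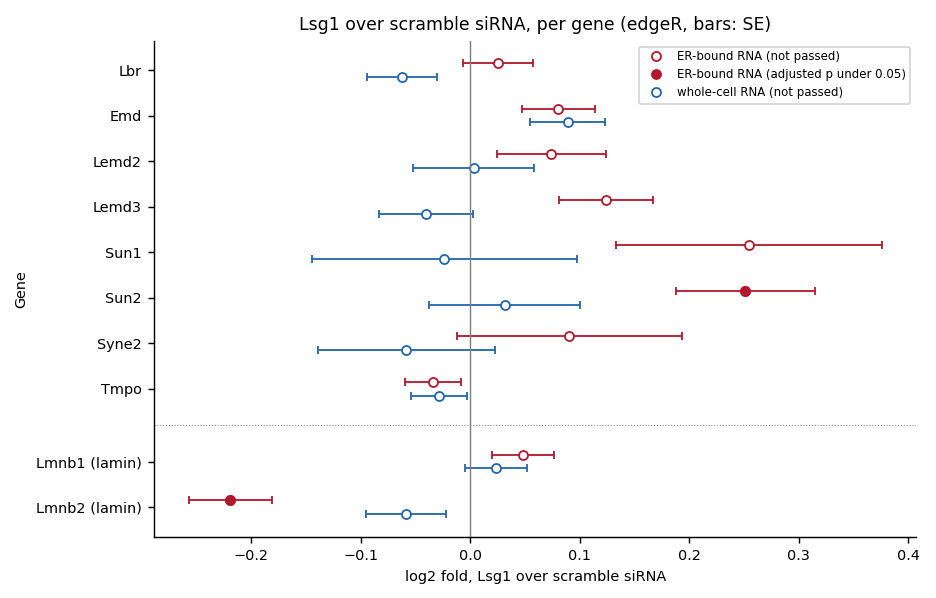
Log2 fold of Lsg1 over scramble siRNA for each gene, with ER-bound RNA above and whole-cell RNA below in each row. Bars are SE derived from the edgeR test, and filled points passed the adjusted p of 0.05. The filled points are Sun2 at 0.25 and Lmnb2 at -0.22, both in ER-bound RNA; whole-cell values lie between -0.06 and 0.09.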

How the data were processed

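The deposited tables held raw counts per gene, 1 table for each of 12 libraries. Per the labels' protocols, libraries were made from poly-A RNA with a directional kit and sequenced as paired reads. Per the submitters' processing notes, the authors aligned to GRCm39 with STAR 2.7.9a and made the counts with HTSeq 0.11.2; the strand setting and annotation release were not given in the sources used here. Lines that name no gene, namely no feature (2.65% to 5.26% of reads), not unique (6.09% to 8.23%) and ambiguous (0.970% to 1.16%), stayed out of library sizes. Symbols, transcripts and coordinates came from GENCODE M21 on GRCm38, matched by Ensembl ID without version (52083 IDs, 94.0%); the coordinates are of that build, not the authors'. Proteins were translated from its coding sequences, where RefSeq proteins had been planned.

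Counts were tested with edgeR 4.0.16 (quasi-likelihood, TMM, filterByExpr, prior count 2, R 4.3.3) with 1 mean per group over 12 libraries and 8 residual degrees of freedom, and adjusted by Benjamini-Hochberg over 17702 genes at 0.05; the common coefficient of variation was 4.42%. The edgeR p-values set differences between group means against the spread between biological replicates. The main fit did not model the pairing of fractions by lysate. The procedure was also run on counts simulated as independent libraries with the estimated spread and added changes. These held no lysate pairing, no GC or length trend and no deviant library, so they do not bear on those features. The SE of a log2 fold was computed as its absolute value divided by the square root of the F statistic of the quasi-likelihood test. Named genes were the 10 members, Lsg1, and from each other list up to 3 called genes with the smallest p and up to 2 others with the highest CPM between fractions, and every gene called between siRNAs. Members, lists, tests and alternatives were chosen with earlier results of these data known.

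Other settings tried were library totals, DESeq2 size factors, no filter and a filter of 2 CPM in 3 libraries, DESeq2 1.42.0, limma-voom (limma 3.58.1), only the groups compared, a replicate block, a GC and length offset (splines with 5 degrees of freedom; 99.7% of genes had both), both together, each library left out, and ER-bound scramble replicate 3 with whole-cell Lsg1 replicate 3 left out. Fractions are paired by lysate. Over genes of at least 5 CPM, deviations of the ER-bound and whole-cell libraries of a culture correlated by 0.0158 to 0.281 with Lsg1 siRNA. With scramble siRNA the range was -0.0305 to 0.256. Between siRNAs, deviations of same-numbered ER-bound libraries correlated by 0.126 to 0.376 over genes of at least 5 CPM and by 0.00727 to 0.174 over all tested genes, so the block is given beside that count. Figures were drawn with matplotlib 3.10.9.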

Additional observations from a re-analysis of the deposited data

Results flagged for a closer look

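For Lemd3 the cultures of the 2 siRNAs lay on opposite sides of 0. Its log2 ratio of ER-bound to whole-cell RNA averaged 0.037 over the 3 Lsg1 siRNA cultures, all above 0 (0.04, 0.05 and 0.02), and -0.13 over the 3 scramble siRNA cultures, all below 0 (-0.17, -0.09 and -0.12). The interaction, which tests this difference, was 0.16 (SE 0.06, unadjusted p = 0.016, edgeR adjusted p = 0.63) and so did not pass over all genes. It was picked from 10 genes because the 3 cultures of each siRNA lay on 1 side of 0. Over the 23 alternatives the edgeR fold of Lemd3 ran from -0.01 to 0.14 with Lsg1 siRNA and from -0.17 to -0.0072 with scramble siRNA. Its side of 0 with Lsg1 siRNA thus depended on the setting.

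Lsg1, the target of the siRNA, differed between the fractions in its response, with an interaction of -1.22 (SE 0.15, edgeR adjusted p = 0.0013). Its log2 fold between siRNAs was -1.77 in ER-bound RNA and -0.55 in whole-cell RNA. The whole-cell fold did not pass in the main fit (edgeR adjusted p = 0.25) and passed in 6 of the 23 alternatives.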

How the results depend on the processing

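No call on a single gene of the 10 changed direction in any alternative, but the difference of Syne2 from Lmnb2 did, with -0.53 as measured and 0.35 with the GC and length trend removed. Between fractions, the calls on Lbr, Lemd2, Sun2, Syne2, Lmnb1 and Lmnb2 held in all 23 with both siRNAs. Library totals moved the median log2 fold of all genes to 0.11 with both siRNAs and the split of calls to 6686 higher and 4142 lower with Lsg1 siRNA (5412 and 5271 under TMM) and to 6438 and 4144 with scramble siRNA (5279 and 5143 under TMM); 3 members were then lower with scramble siRNA, Lemd3 reached 0.13 with Lsg1 siRNA and passed (edgeR adjusted p = 0.021), and Sun1 no longer passed with scramble siRNA (-0.23, edgeR adjusted p = 0.093). The GC and length offset raised Lemd3 to 0.14 with Lsg1 siRNA (edgeR adjusted p = 0.0041) and brought it to -0.01 with scramble siRNA (edgeR adjusted p = 0.88); the scramble call on Lemd3 was also lost without the filter (adjusted p = 0.054). It turned Banf1 to -0.071 and -0.10, Fntb to -0.22 and -0.16 (Lsg1, then scramble siRNA), and Syne4 to -0.20 with Lsg1 siRNA; with the replicate block as well these were -0.071, -0.10, -0.22, -0.16 and -0.19. Sun1 with scramble siRNA also lost its call with DESeq2, with only the groups compared and without whole-cell scramble replicate 2 or 3 (adjusted p = 0.074, 0.070, 0.068 and 0.065). The causes were not tested.

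Between siRNAs in ER-bound RNA, 375 genes were called with only the groups compared, 1178 with the replicate block, 1389 with the block and the GC and length offset, and 290 to 854 with 1 library left out (432, 367 and 290 without ER-bound Lsg1 replicate 3, 1 or 2, and 312 without ER-bound scramble replicate 2). The members higher numbered 2 without the filter (Sun1 joined Sun2), 0 with only the groups compared and 0 to 1 with 1 library left out; Sun2 lost its call without ER-bound scramble replicate 1, any ER-bound Lsg1 library, whole-cell scramble replicate 2 or whole-cell Lsg1 replicate 2. In whole-cell RNA the count of 0 genes became 26 without the filter, 5 with DESeq2, 2 with only the groups compared, 5 with the replicate block, 1 with the offset, 8 with both, 4 without 2 libraries together and 0 to 3 with 1 library left out (3 without ER-bound scramble replicate 1). For the interaction 4 genes became 59 without the filter (1 member, Sun1, higher), 18 with DESeq2, 10 with the replicate block, 14 with block and offset and 3 to 8 with 1 library left out (8 without ER-bound scramble replicate 1). The replicate block changed no call on any of the 10 genes.

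Of the 16 pairs, 14 to 15 lay above 0 in the alternatives over all cultures, 14 in the Lsg1 siRNA cultures alone and 13 in the scramble cultures alone. With a hydropathy threshold of 1.8, the shares higher on ER-labelled ribosomes were 63.4% and 59.4% for early segments and 57.2% and 56.5% for tail segments (Lsg1, then scramble siRNA). Depth limited Syne2 most, whose lowest library held 152 reads.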
